A study of Homo sapiens with 9 samples.

Results

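The 10 catalytically active MAP kinase phosphatase genes of the DUSP family were followed in MCF10A cells that carry no HER2 transgene, wild-type HER2 or the Delta-HER2 splice variant. They were DUSP1, DUSP2, DUSP4, DUSP5, DUSP6, DUSP7, DUSP8, DUSP9, DUSP10 and DUSP16. Each was found by its symbol in the annotation of the array, each had 1 transcript cluster (1 summarised value per array), and all 10 were among the 18404 genes measured. MCF10A is an immortal cell line from human breast epithelium that forms no tumors and needs epidermal growth factor in its medium. The study used 9 whole-transcript arrays, 3 for each group, to ask what expression of HER2, the receptor tyrosine kinase encoded by ERBB2, and of its splice variant does to these cells. The labels name the control cells parental, while the design text has them carry an empty vector, the second group (WT-HER2) carried the wild-type receptor as transgene and the third (Delta-HER2) the splice variant. The labels give neither the promoter of the transgenes nor whether a line was a clone or a pool, so what the making of a line did to it and what its receptor did cannot be told apart. Cells of all groups were grown with 5% horse serum, 20 ng/ml epidermal growth factor, 0.5 µg/ml hydrocortisone, 10 µg/ml insulin and 100 ng/ml cholera toxin. For the last 16 hours before RNA was taken, the medium held no named supplement other than antibiotics. Nothing in the labels shows that replicates came from separate cultures, and p-values therefore measure only the spread between these arrays, which may be technical.

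MAP kinase phosphatases remove phosphate from both the threonine and the tyrosine of the activation loop of MAP kinases and so switch these kinases off. Several of their genes are induced by the kinases they inactivate, which makes them negative feedback regulators, and their transcripts are commonly read as a record of earlier MAP kinase signaling. The family divides by substrate. DUSP5, DUSP6, DUSP7 and DUSP9 act mainly on ERK, the kinase at the end of the RAS and RAF cascade downstream of HER2. DUSP8, DUSP10 and DUSP16 act mainly on JNK and p38, the stress-activated MAP kinases, and DUSP1, DUSP2 and DUSP4 act on MAP kinases of both kinds. The arrays measured transcripts, and no protein, phosphatase activity or phosphorylated kinase was measured here.

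Levels are given on the log2 scale of the deposited values, on which a step of 1 is a 2-fold difference. Array medians lay between 4.04 and 4.18. Background was gauged by 340 genes for olfactory receptors, whose median was 2.41 and whose 0.95 quantile was 3.18. All group means of all 10 phosphatase genes lay above that bound, and only 4733 of the 18404 genes lay under it in all groups. The 7 measured markers of basal mammary epithelium had group means from 7.90 to 11.82 in these cells. Of the marker genes of other cell types, PTPRC, CD3E and LYZ of blood cells, CDH5, KDR, VWF and TEK of endothelium and PDGFRA and LUM of fibroblasts lay under the bound in all groups, while the blood markers CD14 and CD68 and 5 of 7 fibroblast markers did not. The endothelial marker PECAM1 lay above the bound in Delta-HER2 cells (3.90) and under it in the other groups (3.00 in control). The summed level of the 7 fibroblast markers was 27.53 to 29.44 on control, 28.70 to 29.70 on WT-HER2 and 27.44 to 27.79 on Delta-HER2 arrays, that of the 5 blood markers 21.23 to 21.80, 22.28 to 22.98 and 21.63 to 22.26, and that of the 5 endothelial markers 13.58 to 14.10, 13.40 to 14.71 and 14.05 to 14.58. The part of these markers in the results was not tested. Control replicate 1 (score 10.34) and WT-HER2 replicate 3 (32.07) stood apart from the other arrays of their groups on the second axis of variation, which held 16.6% of the variance. Without these 2 arrays, 2, 6 and 4 of the 10 phosphatase genes were called in the comparisons of WT-HER2 with control, Delta-HER2 with control and the HER2 lines, against 3, 6 and 4 with them. Of all 18404 genes, 294, 5402 and 4554 were called without these arrays, and 309, 4669 and 4191 with them. In RNA from a whole culture, fewer cells with a transcript and less of it per cell cannot be told apart.

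Delta-HER2 cells had more transcript of 3 of the 4 ERK-selective phosphatases (DUSP5, DUSP6 and DUSP7) and of 2 of the 3 broad ones (DUSP1 and DUSP4), and less of 1 of the 3 JNK/p38-selective ones (DUSP10). Against control, 5 of the 10 genes rose and 1 fell with limma at adjusted p below 0.05, where 25.4% of all genes passed (13.6% higher and 11.7% lower). In WT-HER2 cells 2 rose (DUSP1 and DUSP4) and 1 fell (DUSP10), where 1.68% of all genes passed (0.777% higher and 0.902% lower). With limma, 0 of the 4 ERK-selective genes passed with WT-HER2. Of these, 3 had an unadjusted p below 0.05 (DUSP5 0.00190, DUSP6 0.00489 and DUSP7 0.00739), as had 2067 of all 18404 genes. With array weights DUSP5 and DUSP6 were called (adjusted p = 0.0211 and 0.0174), where 736 of all genes were called. Between the HER2 lines, 3 genes were higher with Delta-HER2 (DUSP4, DUSP6 and DUSP7) and 1 was lower (DUSP10), where 22.8% of all genes passed (13.4% higher and 9.35% lower). An F test over the 3 groups was passed by 6 of the 10 genes and by 24.4% of all genes. The comparisons with control share the same 3 control arrays. The 10 genes were listed with earlier results of these arrays known, so these counts describe the family and are not independent evidence about it.

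**Figure D1:**
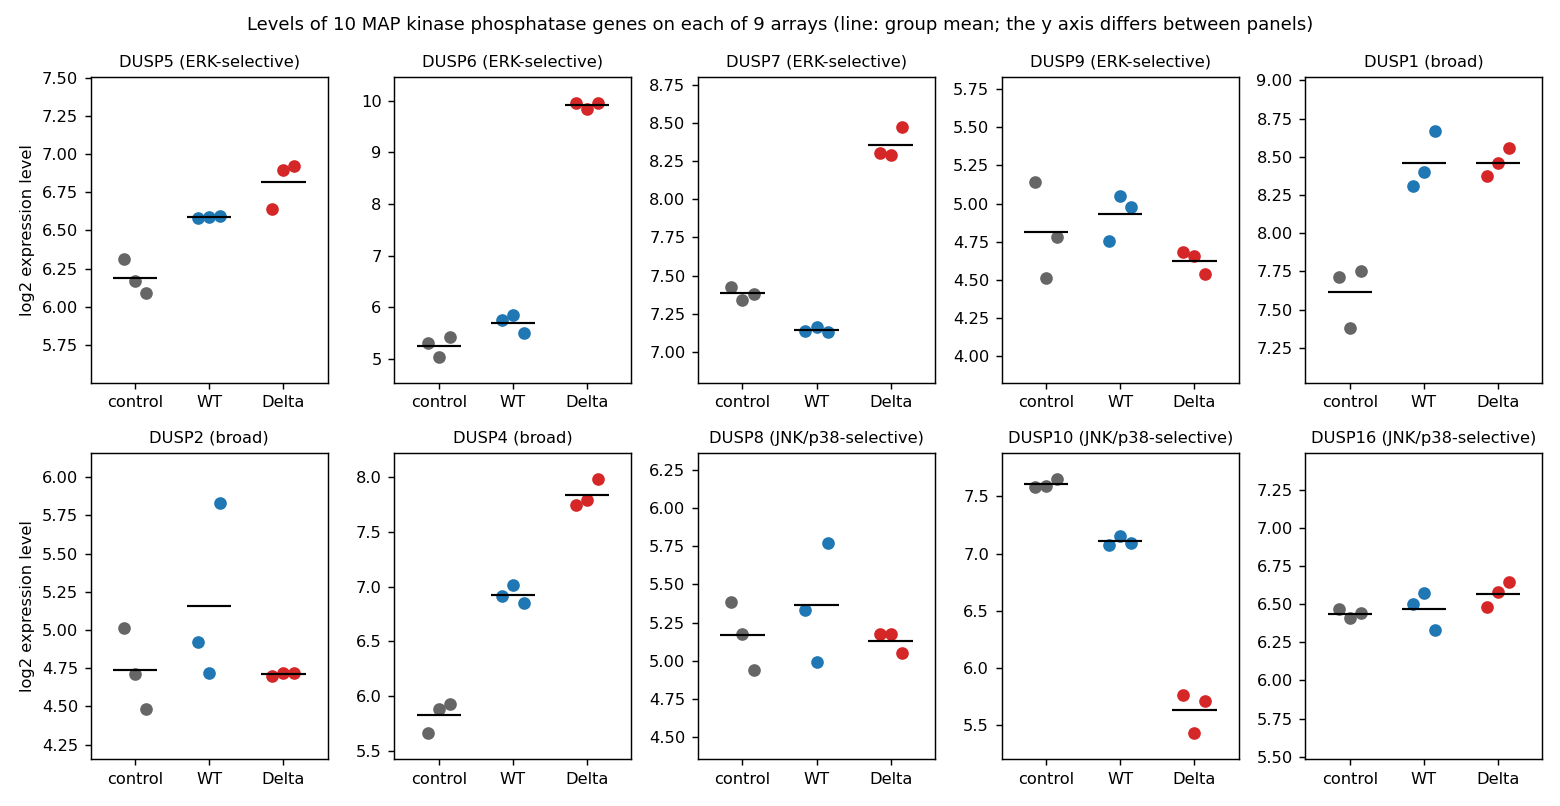
Log2 level of each of the 10 phosphatase genes (y axis, its range differing between panels) on the 3 control, 3 WT-HER2 and 3 Delta-HER2 arrays (x axis); points are arrays and lines are group means. DUSP6 lay between 9.85 and 9.97 on Delta-HER2 arrays and at or below 5.85 on all others, DUSP4 rose in steps, DUSP10 fell in steps, and the DUSP1 values of the HER2 lines overlapped.

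**Figure D2:**
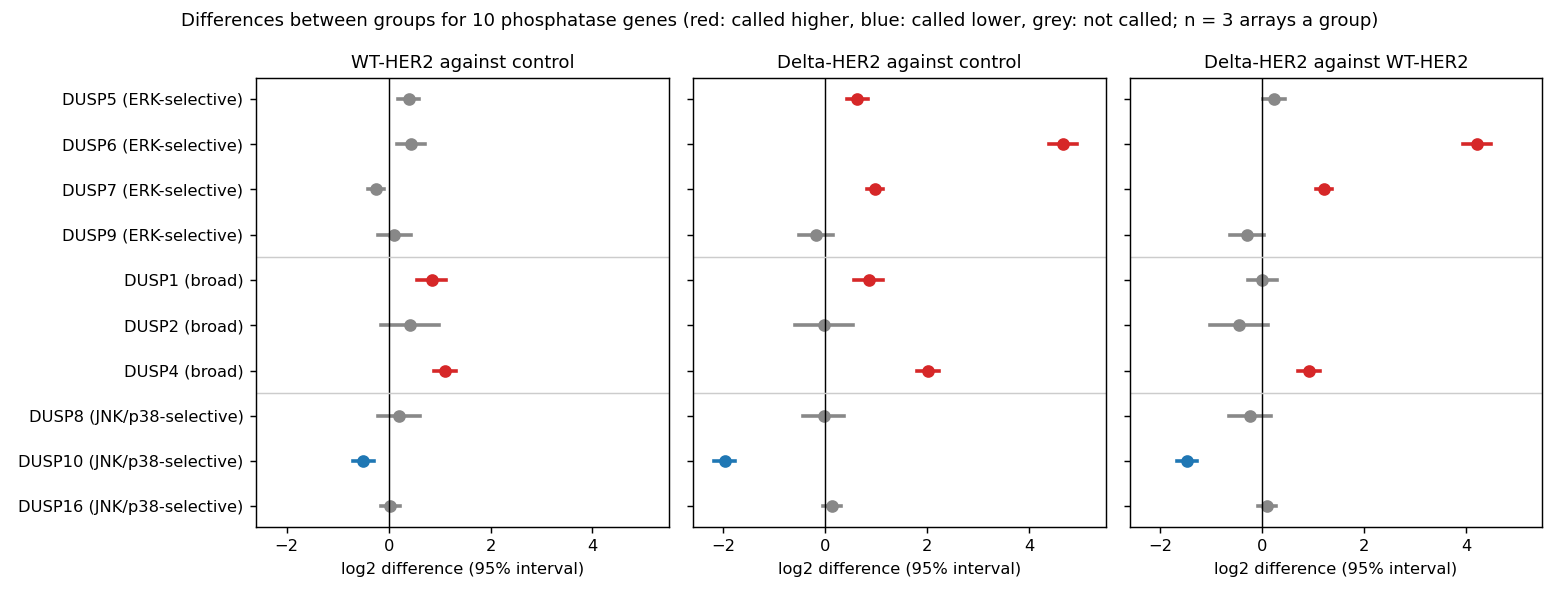
Log2 difference between groups (x axis) with its 95% interval for each gene (y axis), with red for genes called higher, blue for genes called lower and grey for genes not called by limma; n = 3 arrays in every group. DUSP6 lies at 4.67 with Delta-HER2 and at 0.45 with WT-HER2, and the interval of DUSP1 spans 0 in the comparison of the HER2 lines.

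The promoters of the genes at the ends of this range are shown because DUSP6 and DUSP10 had the largest increase and the largest decrease of the family, while DUSP1, which rose alike in both lines, and DUSP8, which did not pass, hold the same motif. The 250 bases before the RefSeq gene start (build GRCh38.p14, 5′ to 3′ on the gene's strand) were searched in 10 windows of 8 matched family members on both strands. The motifs were the cAMP response element TGACGTCA, the AP-1 site TGANTCA, the ETS site CCGGAA, the FOXO site GTAAACA, the CCAAT box and the CArG box of serum response factor, none of which overlapped another in these windows. Matches are in capitals, where ATTGG is CCAAT read on the opposite strand. All 4 genes lie on the minus strand, DUSP6 at chr12:89352502-89352751, DUSP10 at chr1:221742090-221742339, DUSP1 at chr5:172771196-172771445 and DUSP8 at chr11:1572272-1572521.
DUSP6: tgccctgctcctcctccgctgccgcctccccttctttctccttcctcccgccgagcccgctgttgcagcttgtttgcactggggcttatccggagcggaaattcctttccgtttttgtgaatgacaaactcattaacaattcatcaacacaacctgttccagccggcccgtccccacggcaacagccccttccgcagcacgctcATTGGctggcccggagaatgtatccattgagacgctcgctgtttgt
DUSP10: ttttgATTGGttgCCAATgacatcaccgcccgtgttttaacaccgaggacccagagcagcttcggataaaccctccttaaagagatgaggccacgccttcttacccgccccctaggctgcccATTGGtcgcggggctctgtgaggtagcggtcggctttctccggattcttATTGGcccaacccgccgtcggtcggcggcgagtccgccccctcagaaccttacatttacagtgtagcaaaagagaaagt
DUSP1: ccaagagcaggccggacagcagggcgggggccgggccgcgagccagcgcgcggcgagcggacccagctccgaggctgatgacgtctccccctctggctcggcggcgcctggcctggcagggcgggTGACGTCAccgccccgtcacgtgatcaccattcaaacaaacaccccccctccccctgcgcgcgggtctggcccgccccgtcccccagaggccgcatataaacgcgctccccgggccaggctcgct
DUSP8: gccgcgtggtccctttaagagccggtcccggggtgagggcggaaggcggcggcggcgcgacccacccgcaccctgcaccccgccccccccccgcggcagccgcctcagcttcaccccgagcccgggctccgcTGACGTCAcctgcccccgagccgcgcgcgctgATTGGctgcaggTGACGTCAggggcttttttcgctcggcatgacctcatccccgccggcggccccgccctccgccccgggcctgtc
The element TGACGTCA was found once before DUSP1 and at 2 places before DUSP8, in 2 of 8 family members, while 1.65% of 35114 windows of the same length hold it. Members are counted here as genes and the share as windows. The windows of DUSP1 and DUSP8 had 74.4% and 76.8% G and C, against a median of 58% over all windows. The part of this composition in the counts was not tested. The CCAAT box was found once before DUSP6 and DUSP8 and at 4 places before DUSP10, in 3 of 8 members, and 32% of all windows hold it. The AP-1, ETS, FOXO and CArG letters were found in none of the 10 windows, and they are in 6.57%, 14.5%, 2.98% and 1.16% of all windows. The windows of DUSP6 and DUSP10 had 57.2% and 56.4% G and C (55.2% at a second DUSP10 start), near the median of 58% over all windows. Those of the 6 other members had 74.0% to 78.4%. A match describes the letters in this window and does not show that a factor binds there.

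Among the genes for ERK-selective phosphatases, DUSP6 had by far the largest difference. Its product is the cytoplasmic phosphatase that holds ERK and dephosphorylates it, and its gene is a classical ERK target. DUSP6 (transcript cluster 7965335, Entrez gene 1848) stood at 5.30, 5.03 and 5.43 on control arrays, at 5.76, 5.85 and 5.49 on WT-HER2 arrays and at 9.95, 9.85 and 9.97 on Delta-HER2 arrays. The Delta-HER2 arrays lay far above all others, and the lowest WT-HER2 array was just above the highest control array, as it was for 6.4% of all genes. The group means were 5.25 ± 0.20, 5.70 ± 0.19 and 9.92 ± 0.07 (SD, n = 3). DUSP6 rose 25.45-fold with Delta-HER2 (log2 difference 4.67, 95% interval 4.40 to 4.94, limma adjusted p = 7.30e-08), which was the largest increase among the 18404 genes. With WT-HER2 the difference was 0.45 (0.17 to 0.72, adjusted p = 0.142) and did not pass. The effect of Delta-HER2 was larger than that of WT-HER2 by 4.22 (3.95 to 4.50, adjusted p = 1.68e-07).

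DUSP7 (transcript cluster 8087833, Entrez gene 1849), which encodes a close cytoplasmic relative of DUSP6, rose with Delta-HER2 and had its lowest values with WT-HER2. It stood at 7.43, 7.34 and 7.38 on control arrays, at 7.14, 7.16 and 7.13 on WT-HER2 arrays and at 8.31, 8.29 and 8.47 on Delta-HER2 arrays. No group overlapped another. Of all genes, 19.2% were higher without overlap in Delta-HER2 than in control arrays, and 18.3% higher than in WT-HER2 arrays. With Delta-HER2, DUSP7 rose 1.96-fold (0.97, 0.81 to 1.13, adjusted p = 8.09e-06). With WT-HER2 the difference was −0.24 (−0.40 to −0.08, adjusted p = 0.185) and did not pass, and groups without overlap in that direction were found for 7.63% of all genes. The Delta-HER2 line exceeded the WT-HER2 line by 1.21 (1.05 to 1.37, adjusted p = 3.18e-06), 2.32-fold. The spread of DUSP7 within groups (pooled SD 0.06) was small, with 10.3% of genes below it.

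DUSP5 (transcript cluster 7930413, Entrez gene 1847), the ERK phosphatase of the nucleus, showed a smaller increase. Its levels were 6.31, 6.17 and 6.09 on control, 6.58, 6.59 and 6.59 on WT-HER2 and 6.64, 6.90 and 6.92 on Delta-HER2 arrays. The arrays of the 3 groups did not overlap and followed the order control, WT-HER2, Delta-HER2. Of all genes, 6.4% were higher without overlap in WT-HER2 than in control arrays. The share was 19.2% for Delta-HER2 against control and 18.3% for Delta-HER2 against WT-HER2. DUSP5 rose 1.55-fold with Delta-HER2 (0.63, 0.42 to 0.84, adjusted p = 7.16e-04). The differences of 0.40 with WT-HER2 (0.19 to 0.60, adjusted p = 0.0843) and of 0.23 between the HER2 lines (0.03 to 0.44, adjusted p = 0.111) did not pass, so these neighbours are not separated by the test over all genes. Without Delta-HER2 replicate 1, the lowest of its group, DUSP5 was also higher in the Delta-HER2 than in the WT-HER2 line (adjusted p = 0.0324). The annotation also lists DUSP5P1, a pseudogene of DUSP5. Its difference from control was 0.51 with WT-HER2 (limma adjusted p = 0.0843) and −0.29 with Delta-HER2 (adjusted p = 0.113). Whether the transcript clusters of the pseudogene and the gene share signal was not tested.

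DUSP9, a cytoplasmic phosphatase that acts mainly on ERK, was the ERK-selective member that did not pass in any comparison. Its levels ranged from 4.52 to 5.14 on control, from 4.76 to 5.05 on WT-HER2 and from 4.54 to 4.68 on Delta-HER2 arrays. The groups lay close together, and the widest spread was that of the control arrays (SD 0.31). The difference from control was 0.12 with WT-HER2 (−0.21 to 0.45) and −0.19 with Delta-HER2 (−0.52 to 0.14), intervals within which a 2-fold change does not lie. All Delta-HER2 arrays lay below all WT-HER2 arrays, as they did for 16.3% of all genes. The difference between the lines was −0.30 (−0.63 to 0.03, limma adjusted p = 0.197) and did not pass.

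Of the phosphatases with broad substrates, DUSP4 (transcript cluster 8150076, Entrez gene 1846) rose in both HER2 lines and by more with Delta-HER2. It encodes a nuclear phosphatase that ERK signaling induces. Its levels were 5.66, 5.88 and 5.93 on control arrays, 6.91, 7.01 and 6.85 on WT-HER2 arrays and 7.75, 7.79 and 7.98 on Delta-HER2 arrays. The groups formed 3 steps without overlap. Increases without overlap were found for 6.4% of all genes with WT-HER2, 19.2% with Delta-HER2 and 18.3% between the HER2 lines. DUSP4 rose 2.15-fold with WT-HER2 (1.10, 0.88 to 1.32, adjusted p = 7.60e-04) and 4.05-fold with Delta-HER2 (2.02, 1.80 to 2.24, adjusted p = 8.35e-07). The lines differed by 0.91 (0.69 to 1.14, adjusted p = 1.20e-04). ERBB2 itself stood at 6.97, 6.91 and 7.10 on control arrays, at 7.98 on all 3 WT-HER2 arrays and at 8.93, 8.96 and 8.97 on Delta-HER2 arrays. Its steps were thus 0.99 from control to WT-HER2 and 0.98 from there to Delta-HER2. The WT-HER2 values of ERBB2 are identical in the table, and their lack of spread is not a measure of precision. DUSP4 rose by 1.06 with WT-HER2 when the 2 arrays that stand apart were left out (adjusted p = 0.0034). Since the HER2 lines differ both in receptor variant and in ERBB2 level, the variant and the amount cannot be told apart.

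DUSP1 (transcript cluster 8115831, Entrez gene 1843), the nuclear phosphatase that growth factors, stress and glucocorticoids induce within minutes, differed from control by a like amount in both HER2 lines. It stood at 7.71, 7.38 and 7.75 on control, at 8.31, 8.40 and 8.67 on WT-HER2 and at 8.37, 8.46 and 8.56 on Delta-HER2 arrays. All HER2 arrays lay above all control arrays, and the HER2 lines overlapped. Increases without overlap were found for 6.4% of all genes with WT-HER2 and 19.2% with Delta-HER2. DUSP1 rose 1.80-fold in each line, by 0.84 with WT-HER2 (0.56 to 1.13, adjusted p = 0.0106) and by 0.85 with Delta-HER2 (0.57 to 1.13, adjusted p = 7.17e-04). The difference between the lines was 0.005 with an interval from −0.28 to 0.29 (adjusted p = 0.987), which includes differences in either direction. Without the 2 arrays that stand apart DUSP1 rose by 0.79 with WT-HER2 (adjusted p = 0.034). The call with WT-HER2 was lost when only these 2 groups were fitted (adjusted p = 0.0677).

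DUSP2, a nuclear phosphatase best known from activated immune cells, had no difference that passed. Its levels were 5.01, 4.71 and 4.48 on control arrays, 4.92, 4.72 and 5.83 on WT-HER2 arrays and 4.70, 4.72 and 4.72 on Delta-HER2 arrays. The high value was that of WT-HER2 replicate 3, and the highest control array was replicate 1, the 2 arrays that stand apart. DUSP2 was 0.28 above its group mean on control replicate 1 and 0.67 above it on WT-HER2 replicate 3. Over all genes, such deviations had an SD of 0.17 on the former and 0.20 on the latter array. The deviations on both arrays correlated over all genes (r = 0.64). The difference with WT-HER2 was 0.42 (−0.15 to 0.99, adjusted p = 0.602), and 0.22 (adjusted p = 0.383) without these 2 arrays. The spread of DUSP2 within groups (pooled SD 0.37) was larger than that of 98.7% of genes.

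Among the JNK/p38-selective phosphatases, DUSP10 was lower in both HER2 lines. Its product acts on JNK and p38 in the nucleus and the cytoplasm. DUSP10 (transcript cluster 7924450, Entrez gene 11221) stood at 7.58, 7.59 and 7.65 on control arrays, at 7.08, 7.15 and 7.10 on WT-HER2 arrays and at 5.76, 5.43 and 5.71 on Delta-HER2 arrays. The groups formed 3 descending steps without overlap. Decreases without overlap were found for 7.63% of all genes with WT-HER2, 17.8% with Delta-HER2 and 16.3% between the HER2 lines. With Delta-HER2 it fell by 1.97 (interval −2.18 to −1.77, adjusted p = 6.72e-07), 3.93-fold, which ranked 42 among the decreases of the 18404 genes. With WT-HER2 it fell by 0.50 (−0.70 to −0.29, adjusted p = 0.0282), 1.41-fold. The lines differed by −1.47 (−1.68 to −1.27, adjusted p = 4.50e-06). The call with WT-HER2 was lost without control replicate 1 (adjusted p = 0.0606), 2 (0.113) or 3 (0.127), without WT-HER2 replicate 1 (0.107), 2 (0.0868) or 3 (0.0735) and without Delta-HER2 replicate 3 (0.0528), while the difference stayed between −0.52 and −0.48 whichever array was left out.

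DUSP8 and DUSP16, which encode the other JNK/p38 phosphatases, did not pass in any comparison. DUSP16 ranged from 6.41 to 6.47 on control, from 6.33 to 6.58 on WT-HER2 and from 6.48 to 6.64 on Delta-HER2 arrays. The Delta-HER2 arrays lay just above the control arrays without overlap, as they did for 19.2% of all genes, and the difference of 0.13 (−0.05 to 0.31, adjusted p = 0.337) did not pass. DUSP8 ranged from 4.94 to 5.38 on control, from 4.99 to 5.77 on WT-HER2 and from 5.05 to 5.17 on Delta-HER2 arrays. As with DUSP2, its highest values were those of control replicate 1 (0.22 above the group mean) and WT-HER2 replicate 3 (0.41 above). Its difference of 0.20 with WT-HER2 (−0.21 to 0.61, adjusted p = 0.753) was 0.10 without these 2 arrays (adjusted p = 0.796), and that with Delta-HER2 was −0.03 with them and 0.07 without. On the 7 other arrays it lay between 4.94 and 5.33.

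The classes by substrate are set side by side next. With Delta-HER2, the 4 ERK-selective genes had a median difference of 0.80 from control (range −0.19 to 4.67), with 3 higher and 0 lower. The 3 JNK/p38-selective genes had a median of −0.03 (range −1.97 to 0.13), with 0 higher and 1 lower, and the median over all genes was −0.01. The 3 broad genes had a median of 0.85 (range −0.02 to 2.02), with 2 higher. Of all genes, 13.6% were called higher and 11.7% lower with Delta-HER2. With WT-HER2 the medians were 0.26 for the ERK-selective, 0.03 for the JNK/p38-selective and 0.84 for the broad genes, against 0.01 over all genes. Neither class was uniform, since DUSP9 did not move with the other ERK-selective genes nor DUSP8 and DUSP16 with DUSP10. On single arrays, the median of the ERK-selective genes relative to control was 0.69, 0.81 and 0.91 with Delta-HER2 and 0.17, 0.32 and 0.20 with WT-HER2. That of the JNK/p38-selective genes was 0.01, 0.01 and −0.12 with Delta-HER2 and 0.07, −0.18 and −0.11 with WT-HER2. With 4 and 3 members these are descriptions of the genes and no test of the classes.

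The kinases that these phosphatases inactivate and the proteins upstream of them were read from lists of the pathway, of which 6 ERK cascade and 2 JNK and p38 cascade genes were not analysed here. Their counts are read beside the shares of all genes called, which were 0.777% higher and 0.902% lower with WT-HER2, 13.6% and 11.7% with Delta-HER2, and 13.4% and 9.35% between the HER2 lines. Of 15 measured ERK cascade components, from adaptors to kinases, 1 was higher and 0 were lower with WT-HER2, and 6 were higher and 3 lower with Delta-HER2 (median 0.14). With Delta-HER2, the adaptor gene SHC1 rose by 1.13 (SE 0.06), the kinase gene MAP2K1, which encodes the activator of ERK, by 0.64 (SE 0.09) and the phosphatase gene PTPN11 by 0.55 (SE 0.08). The exchange factor gene SOS2 fell by 0.64 (SE 0.13). MAPK3, which encodes an ERK kinase and so a substrate of these phosphatases, did not pass against control with either line (0.24 with WT-HER2, −0.15 with Delta-HER2), and differed between the lines by −0.38 (adjusted p = 0.00942). The count of 9 with Delta-HER2 was 5 without control replicate 2 or Delta-HER2 replicate 3 and 4 without Delta-HER2 replicate 1. The call of SHC1 with WT-HER2 (0.30, adjusted p = 0.0498) was lost when any 1 array was left out.

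Of 20 measured JNK and p38 cascade components, 0 passed with limma in WT-HER2 cells, and 1 was called without control replicate 1. An unadjusted p below 0.05 was found for 5 of the 20, and for 2067 of all 18404 genes. The smallest p in the list was that of MAP2K6 (−0.65, adjusted p = 0.137). With Delta-HER2, 4 were higher and 6 lower, with a median of 0.03, where 13.6% of all genes were higher and 11.7% lower. MAP2K3, whose product activates p38, rose by 1.02 (SE 0.12), and MAPK13, a p38 kinase gene, by 0.57 (SE 0.08). The JNK scaffold gene MAPK8IP3 fell by 1.08 (SE 0.06) and MAP2K6, which encodes another activator of p38, by 0.81 (SE 0.17). Of the JNK genes, MAPK8 fell by 0.37 and MAPK10 by 0.68, while MAPK9, named after its values were seen, rose by 0.41. The count of 10 was 6 without control replicate 2 or 3 or Delta-HER2 replicate 1, and 5 without Delta-HER2 replicate 3.

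A further list of 18 genes, grouped as atypical dual-specificity and tyrosine phosphatases, showed no increase that passed. Whether the products of all 18 act on MAP kinases was not assessed. With WT-HER2 0 of 18 passed with limma (0 at an unadjusted p below 0.05, against 2067 of all 18404 genes). With Delta-HER2 0 rose and 2 fell (median −0.04), a count of decreases near the 11.7% of all genes that were lower. Those were DUSP18 (−0.54, SE 0.10, adjusted p = 0.00327) and DUSP3 (−0.27, SE 0.08, adjusted p = 0.0305). The count of 2 was 1 without control replicate 3 or without any 1 of the 3 Delta-HER2 arrays, and it was 4 with quantile normalization, with array weights or without the 2 arrays that stand apart. Of these 18 genes, 4 lay under the background bound in all groups.

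Genes outside the family that ERK signaling induces include transcription factors and other feedback inhibitors. Of 20 such genes, 16 rose and 1 fell with Delta-HER2 (median 1.77), where 13.6% of all genes were higher and 11.7% lower. Between the HER2 lines 16 were higher with Delta-HER2 and 1 lower, where 13.4% of all genes were higher and 9.35% lower. With Delta-HER2 against control, those with the smallest p were ETV5 (3.67), ETV1 (3.03) and PHLDA1 (2.72). The feedback inhibitor genes SPRY4 (3.87) and SPRED2 (1.71) also rose. The gene that fell was EPHA4, a receptor gene (−2.59), and 3 genes of the list did not pass. With WT-HER2, 5 rose and 1 fell (median 0.22), where 0.777% of all genes were higher and 0.902% lower. Among them IER3 rose by 0.62, EPHA2 by 0.59 and SPRED2 by 0.59, and EPHA4 fell by 1.87. SPRY4 (0.30, adjusted p = 0.484) and ETV5 (0.13, adjusted p = 0.705) did not pass with WT-HER2. The count of 6 with WT-HER2 was 3 without control replicate 3 and 3 when only these 2 groups were fitted.

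A pair of further lists was set beside the JNK/p38 phosphatases and DUSP1. Their counts are read beside the shares of all genes called, 13.6% higher and 11.7% lower with Delta-HER2 and 0.777% and 0.902% with WT-HER2. Of 20 early genes linked to stress and JNK/p38 signaling, 9 rose and 3 fell with Delta-HER2 (median 0.26), among them CXCL8 (2.10, SE 0.15), CCN1 (1.56, SE 0.18) and TRIB1 (1.27, SE 0.12), while DDIT3 fell by 1.04 and GADD45A by 0.68. With WT-HER2, 0 rose and 1 fell, namely GADD45A (−0.40, adjusted p = 0.0208). That call was lost when WT-HER2 replicate 1 or control replicate 2 or 3 was left out, and 2 genes of the list were called without control replicate 1, WT-HER2 replicate 3 or Delta-HER2 replicate 2. With quantile normalization or with array weights, 3 genes of the list were called. Of 8 measured genes that glucocorticoids induce, as they do DUSP1, 3 rose and 4 fell with Delta-HER2 (median −0.20). TSC22D3, which encodes a glucocorticoid-induced leucine zipper protein, fell by 2.13 (SE 0.10) and ZBTB16 by 1.85 (SE 0.14), while ERRFI1, which is also on the list of ERK-induced genes, rose by 0.81 (SE 0.10). The count of 7 was 4 without Delta-HER2 replicate 1. With WT-HER2, 1 of the 8 rose, NFKBIA (0.44, adjusted p = 0.0276), a call kept only without WT-HER2 replicate 3 or Delta-HER2 replicate 2 when single arrays were left out.

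**Figure D3:**
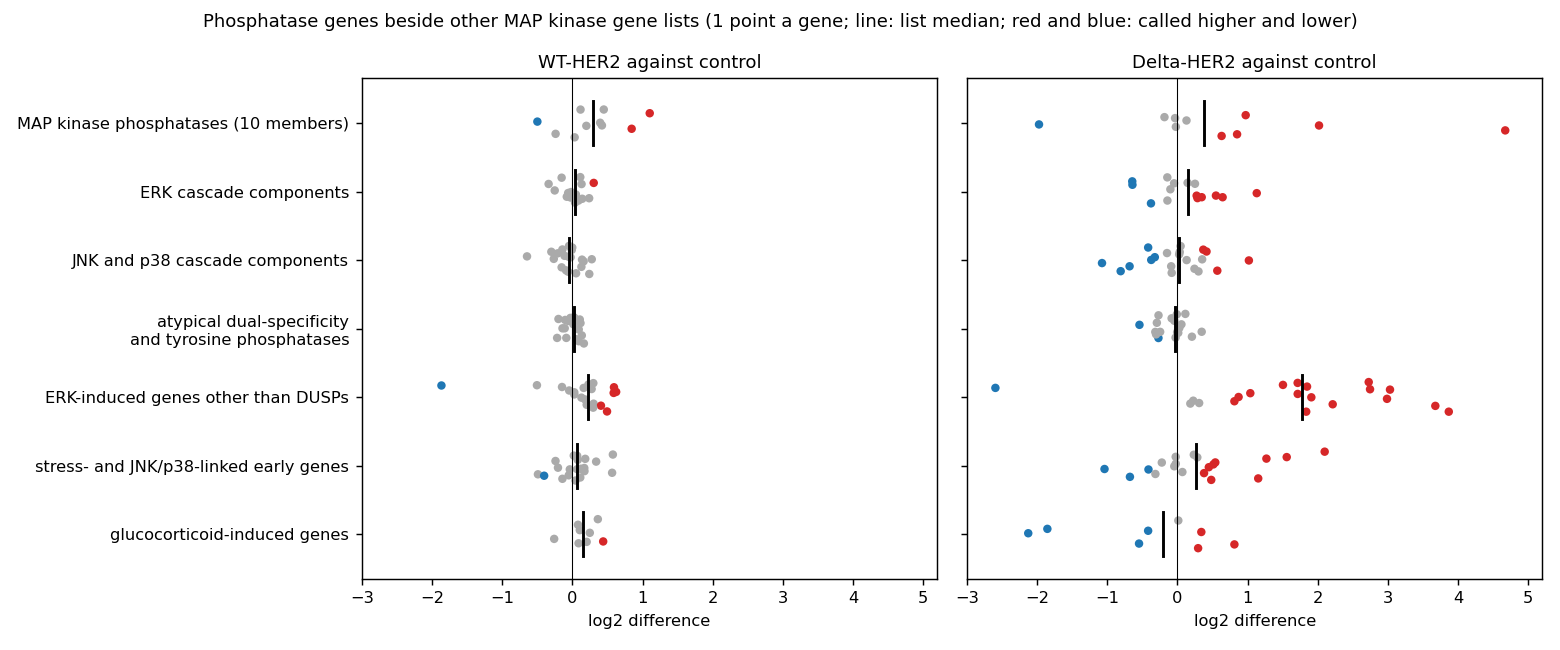
Log2 difference from control (x axis) of single genes (points) in the 10 phosphatase genes and 6 other lists (y axis), with WT-HER2 on the left and Delta-HER2 on the right; black lines are list medians, red and blue points were called higher and lower, and grey points were not called. With Delta-HER2 the ERK-induced genes have a median of 1.77 and the cascade components of 0.14 and 0.03.

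The genes with the most similar profiles differed for each phosphatase. Likeness was measured as the root mean square distance over the 9 arrays after each gene was set relative to its control mean, for the 4 family members with a difference of at least 1 in any comparison. The nearest to DUSP6 were DTL (distance 0.35, Pearson r = 0.99), SERPINE2 (0.43) and SPRY4 (0.52), whose differences from control with Delta-HER2 were 4.29, 4.58 and 3.87. The nearest to DUSP7 were LAS1L (0.06), FASN (0.08) and NUP188 (0.10), each of which had a negative difference with WT-HER2 (−0.25, −0.19 and −0.16) and a positive one with Delta-HER2 (0.99, 0.90 and 1.01). The nearest gene to DUSP4 was ERBB2 (0.12, r = 0.99), ahead of MFSD2A (0.24) and MLLT11 (0.25). The nearest to DUSP10 were LURAP1L (0.08), RNF152 (0.11) and TP53INP1 (0.12), whose differences with Delta-HER2 were −1.99, −1.86 and −1.96. The 9 arrays form 3 groups, so these values describe the shape across groups and carry no test.

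**Figure D4:**
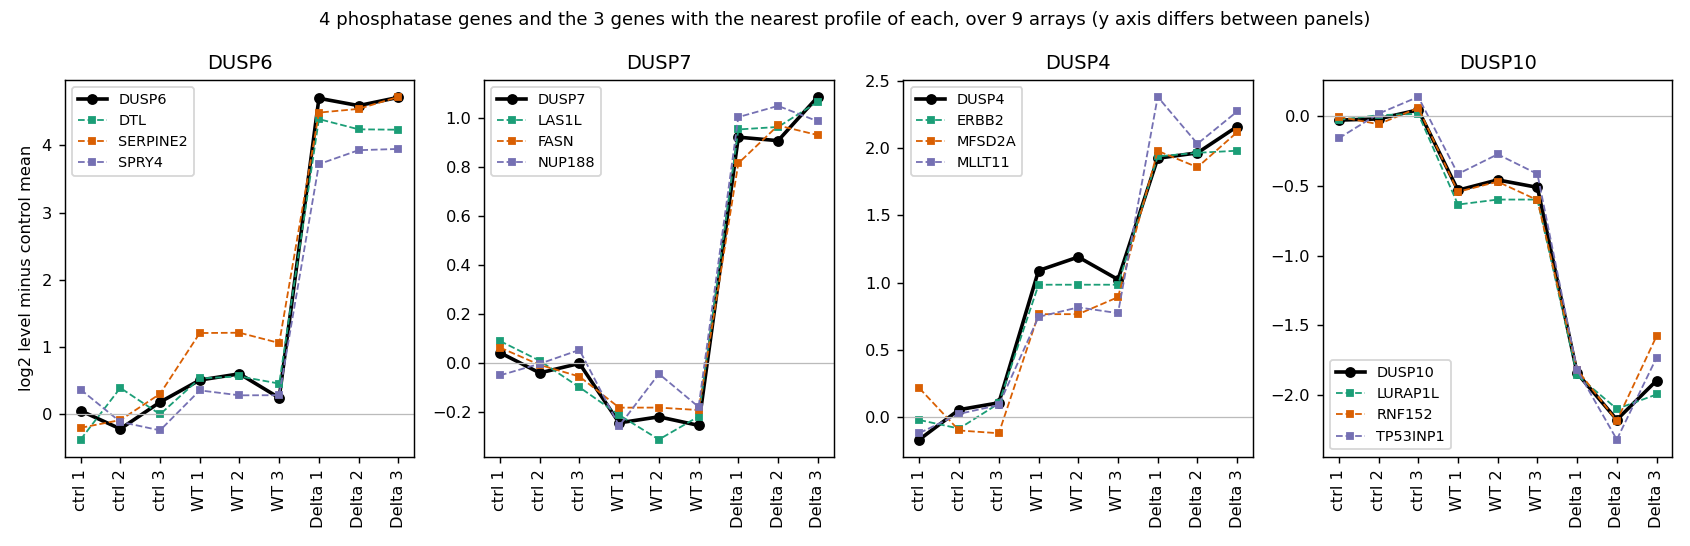
Log2 level relative to the control mean (y axis, its range differing between panels) on each of the 9 arrays (x axis) for DUSP6, DUSP7, DUSP4 and DUSP10 (black) and the 3 genes with the nearest profile of each (coloured, dashed). ERBB2 has a distance of 0.12 from DUSP4, and the genes near DUSP7 dip on the WT-HER2 arrays and rise on the Delta-HER2 arrays.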

How the data were processed

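The authors deposited 1 table of log2 expression values for 9 whole-transcript arrays, made with RMA of the affy package in R 2.14 per the submitters' processing notes. The genome build was not given in the sources used here. RMA subtracts background, equalizes the distributions of the arrays and summarises the probes of a transcript cluster, which compresses differences of dim genes. No further normalization was applied. Of 32321 transcript clusters, 19158 carried 1 gene symbol, 1388 carried several and 11775 were not listed in the platform annotation. For the 637 genes with several clusters the one with the highest mean over the arrays was kept, which gave 18404 genes. The median standard error of a difference was 0.10.

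Groups were taken from the sample labels and compared with limma 3.58.1 (R 4.3.3), 1 coefficient per group over all 9 arrays, with empirical Bayes moderation (6 residual and 3.25 prior degrees of freedom), two-sided tests and Benjamini-Hochberg adjustment over all genes. Calls needed an adjusted p below 0.05. The fit was first tested on simulated data in which 200 genes differed. Promoter windows came from RefSeq (GRCh38.p14), and those of 8 of the 10 family members were used. Member windows on chromosome 8 were left out, and no window of DUSP4 or DUSP5 was searched.

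The members and lists were chosen with earlier results of these data known. Named genes were all members, ERBB2 and EGFR, up to 4 genes with the smallest p per list and comparison, and the 3 nearest profiles. EGFR differed by −0.16 with WT-HER2 (adjusted p = 0.537) and by −0.46 with Delta-HER2 (adjusted p = 0.0028). Alternatives were quantile normalization, median centring, a filter on dim genes, the mean over or each of a gene's clusters, trended and robust moderation, array weights, the replicate block, a fit of only the 2 groups compared, a stricter threshold and each array left out. Leaving out control replicate 1 and WT-HER2 replicate 3 together was chosen after seeing the data.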

Additional observations from a re-analysis of the deposited data

Results flagged for a closer look

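For 4 of the phosphatase genes the effects of the HER2 lines differed, by the limma test of the difference itself. The effect of Delta-HER2 on DUSP6 exceeded that of WT-HER2 by 4.22 on the log2 scale (adjusted p = 1.68e-07). For DUSP7 the difference of the effects was 1.21 (adjusted p = 3.18e-06), with −0.24 for WT-HER2 and 0.97 for Delta-HER2. For DUSP4 it was 0.91 (adjusted p = 1.20e-04), and both effects were increases. For DUSP10 it was −1.47 (adjusted p = 4.50e-06), and both effects were decreases. Each held in 3 of 3 Delta-HER2 arrays against all WT-HER2 arrays. Of all genes, 18.3% were higher and 16.3% lower with Delta-HER2 without overlap. The 4 genes were picked by the same comparison, so their lack of overlap adds no support. Outlying single arrays were not tested for, since every group had 3.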

How the results depend on the processing

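Of 13 called differences of the phosphatase genes, 11 kept their direction and their side of the threshold under all 20 alternatives. The exceptions were DUSP10 and DUSP1 with WT-HER2. The DUSP10 call was also lost when all transcript clusters were tested (adjusted p = 0.0627) and without control replicate 1 and WT-HER2 replicate 3 (0.0962), and both were lost at an adjusted p of 0.01.

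The 309 genes called with WT-HER2 became 736 with array weights, 134 with only the 2 groups compared, 115 at an adjusted p of 0.01, and 126 to 279 with 1 array left out (129 and 126 without control replicates 2 and 3, 155 and 152 without WT-HER2 replicates 1 and 2). The 3 phosphatase genes called there became 5 with array weights, 1 at 0.01 and 2 to 3 with 1 array left out. With 1 array left out, 3805 to 5097 genes and 6 of the phosphatase genes were called with Delta-HER2, 3328 to 4381 and 4 to 5 between the HER2 lines (2772 genes at 0.01), 6 passed the F test, and the background bound was 3.14 to 3.20. The cause of these changes was not tested.

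Differences that changed sign did not pass the test under any setting. With Delta-HER2 against control, DUSP2 was 0.0046 after quantile normalization, 0.0188 after median centring, 0.0546 with array weights and 0.12 without the 2 arrays, and DUSP8 was 0.0072, 0.0083 and 0.0739 under the latter 3. DUSP1 between the HER2 lines was −0.0639 after quantile normalization. With 1 array left out, the ranges with WT-HER2 were −0.0328 to 0.28 for DUSP9, −0.0055 to 0.39 for DUSP8 and −0.0209 to 0.10 for DUSP16, those with Delta-HER2 −0.15 to 0.12 for DUSP2 and −0.15 to 0.0739 for DUSP8, and that of DUSP1 between the lines −0.0699 to 0.11.

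With the replicate number as a block, 139 genes were called with WT-HER2, and of 30 differences of the phosphatase genes 1 call was lost (DUSP10 with WT-HER2, adjusted p = 0.103) and 0 were gained. Deviations of same-numbered arrays from their group means correlated between −0.51 and 0.30. Within a group of so few arrays these deviations depend on each other. The correlations therefore cannot decide whether the numbers pair the arrays.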

Other observations

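The annotation lists DUSP5P1, a pseudogene of DUSP5, whose group means were 6.09 (control), 6.60 (WT-HER2) and 5.80 (Delta-HER2). It was lower with Delta-HER2 than with WT-HER2 by 0.80 on the log2 scale (difference −0.80, limma adjusted p = 9.02e-04), in a comparison in which DUSP5 had a difference of 0.23 that did not pass. Against control neither line passed for the pseudogene (adjusted p = 0.0843 with WT-HER2 and 0.113 with Delta-HER2).

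Some values recur exactly between arrays. DUSP8 was listed at 5.17 on control replicate 2 and Delta-HER2 replicates 1 and 2, and DUSP2 at 4.72 on WT-HER2 replicate 2 and Delta-HER2 replicate 3. Such a repeat was found for 2 of the 10 phosphatase genes and for 9407 of 18404 genes (51.1%).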
